A study of Mus musculus with 57 samples.

Results

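The 33 genes described here are an astrocyte set, chosen as astrocyte-enriched genes. The libraries are of bulk tissue, so the cells that gave each transcript were not measured. The genes were taken by symbol from the deposited table of 51456 Ensembl genes. All 33 were found, and all 33 were among the 16659 genes with a mean value of at least 10 over the libraries. The study sequenced prefrontal cortex from 57 C57BL/6N mice on postnatal day 25. Of these, 30 were heterozygous for Shank2 (HT), a gene for a postsynaptic scaffold of glutamatergic synapses, and 27 were wild type (WT). Every pup had been exposed through its mother's milk from postnatal day 3 to 24, for 3 weeks, to the antidepressant fluoxetine, to lithium, which is used to treat bipolar disorder, or to vehicle. The HT mice gave 10 libraries under each treatment. The WT mice gave 8 libraries under vehicle, 10 under fluoxetine and 9 under lithium. Each of these 6 arms held both sexes, with 4 or 5 libraries per sex and 28 female and 29 male libraries in all. The sources used here give no dose, allele, litter or dam for these samples, so the p-values here reflect the variation from library to library and no more.

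Astrocytes clear glutamate from the synaptic cleft, convert it to glutamine for return to neurons, buffer potassium and water at endfeet around blood vessels, and couple to each other through gap junctions. They also supply cholesterol-carrying lipoproteins and other secreted proteins that neurons use during synapse formation. In the mouse cortex these functions and their genes mature over the first postnatal weeks, the window in which the drugs were given.

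Shank2 itself separated the genotypes: its value ran from 3877 to 5006 in the HT libraries and from 6762 to 11791 in the WT libraries, with no overlap. The values are already normalized, so sequencing depth before normalization is unknown; total normalized estimated counts were 30378902 to 33234604 per library. A pair of libraries stood apart. WT vehicle male 2 had a rank correlation of -0.33 between its deviation from the mean of all libraries and transcript length, against -0.15 to 0.17 in the others. HT fluoxetine male 3 had microglia markers 1.03 below their mean on the log2 scale, where no other library was more than 0.56 below. Their median correlations with the other libraries were 0.968 and 0.970. WT vehicle female 1 was also low, at 0.977 with the lowest total, where the remaining libraries were at 0.981 or more. It was kept in the fits that leave out the pair. All counts of called genes below come from a limma fit of log2(value + 1) over the 12 groups of genotype, drug and sex. A gene is called at an adjusted p under 0.05 over all 16659 genes, and "rose" and "fell" are used only of called genes.

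None of the 33 genes was at 0 in any library. Per kilobase of their longest annotated transcript, the highest mean levels belonged to Apoe, the main lipid carrier protein of the brain (25091 normalized counts per kilobase), and Cst3, the secreted protease inhibitor cystatin C (20721). Next were Glul, glutamine synthetase (17067), Sparcl1, the synapse-promoting protein hevin (16556), and Slc1a2, the glutamate transporter GLT-1 (10167). The lowest were Sox9, a transcription factor of glial identity (153), and Cbs, cystathionine beta-synthase (142). The ranking depends on the transcript length used: with the median annotated transcript in place of the longest, Slc1a2 ranked 1st and Apoe 3rd. With that change Aldh1l1 moved from rank 28 to 14 and Cbs from 33 to 29. The defining markers were therefore all well above the detection minimum, with mean values from 634 for Sox9 to 117881 for Slc1a2.

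Over all treatments, 10 of the 33 genes fell in HT mice and none rose. Of all genes tested, 3.74% were called and 2.12% were called lower. The 10 were Cst3, Ntsr2, Gpr37l1, Gjb6, Id4, S100b, Htra1, Glul, Aldoc and Hepacam, and they came from 8 of the 9 roles into which the genes were sorted; amino acid transport and metabolism had none. HT minus WT was below 0 for 31 of the 33 genes, with a median of -0.099, where the median over all genes was 0.00085. The exceptions were Sox9 at 0.11 and Id3 at 0.022. At an unadjusted p under 0.05 there were 20 lower genes and 1 higher gene among the 33, against 18.9% of all genes in either direction. These are bulk tissue values, in which fewer astrocytes, less RNA per astrocyte and changes in other cells cannot be told apart.

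Cst3 had the smallest p of the set. It ran from 15180 through a median of 18452 to 25910 in the 27 WT libraries and from 14007 through a median of 16666 to 20361 in the 30 HT libraries. The ranges overlapped, but 25 of 30 HT libraries were below the WT median, and Cst3 fell by 0.16 on the log2 scale (SE 0.032, adjusted p = 0.000821). Gpr37l1, an orphan receptor of astrocytes, fell by 0.15 on the log2 scale (SE 0.033, adjusted p = 0.00526), with 28 of 30 HT libraries below the WT median. Ntsr2, the low-affinity neurotensin receptor, fell by 0.16 on the log2 scale (SE 0.037, adjusted p = 0.00542). Gjb6, which encodes connexin 30 of astrocyte gap junctions, had the largest change: it ran from 975 through a median of 1534 to 2359 in WT and from 806 through a median of 1300 to 1886 in HT, and fell by 0.28 on the log2 scale (SE 0.072, adjusted p = 0.0172). The other 6 called genes fell by 0.088 (Hepacam) to 0.19 (Htra1), with adjusted p from 0.0195 (Id4) to 0.0477 (Hepacam). For each of the 10 the ranges of the genotypes overlap.

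The 3 treatments contribute separate libraries to the genotype comparison. Under vehicle, 1 of the 33 genes was called (all genes 0.762%): Ntsr2 fell by 0.26 on the log2 scale (SE 0.066, adjusted p = 0.0408). At an unadjusted p under 0.05, 13 were lower (all genes 14.8%), and 30 of the 33 were below 0, with a median of -0.10. Under fluoxetine, limma called none of the 33 (all genes 0.222%), 14 were lower at an unadjusted p under 0.05 (all genes 10.5%), and 32 were below 0, with a median of -0.10. The smallest p there was that of S100b, a calcium-binding protein, at -0.22 (SE 0.061, adjusted p = 0.123). Under lithium, limma again called none (all genes 0.114%), 6 were lower and 2 higher at an unadjusted p under 0.05 (all genes 7.75%), and 26 were below 0, with a median of -0.06. Gjb6 had the smallest p there, at -0.41 (SE 0.13, adjusted p = 0.265), and the 2 higher genes were Sox9 at 0.27 and Id3 at 0.20. The single call under vehicle was not steady: 0 to 3 of the 33 were called when 1 library was left out, and the Ntsr2 call was lost in 12 of the 18 leave-outs. It held without HT vehicle female 3, HT vehicle female 4, HT vehicle male 4, WT vehicle female 2, WT vehicle male 1 or WT vehicle male 4. With the vehicle libraries left out of the genotype contrast over all treatments, a choice made after the values were seen, 1 of the 33 was called (Cst3) and the median was -0.094.

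The genotype comparison was also made within each sex. The comparisons within each sex over all treatments were added after values had been seen. In males, 19 of the 33 genes fell in HT mice and none rose (all genes 9.64%, lower 4.68%). In females limma called none of the 33 (all genes 0.648%), and 3 were lower and 1 higher at an unadjusted p under 0.05 (all genes 10.6%): Acsl6 at -0.081, Slc4a4 at -0.19, Gpr37l1 at -0.10 and Id3 at 0.15. The median of HT minus WT was -0.18 in males, with 32 of 33 below 0, and -0.016 in females, with 20 of 33 below 0. The male 19 include all 10 genes called over both sexes. At an unadjusted p under 0.05, males had 25 lower genes and 1 higher gene, Sox9 (all genes 26.6%). When each male library was left out in turn, 17 to 21 of the 33 were called, and 16 of the 19 genes were called in all 29 leave-outs; Atp1b2, Dio2 and Clu were not. Adding the length trend of each library to the fit lowered the male count to 5, with a median of -0.14. The 5 were Gja1, Cst3, Htra1, Ntsr2 and Id4. The trend is measured in the same libraries. The count over all genes in males also moved with the settings, and its value with this term is not given.

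**Figure D1:**
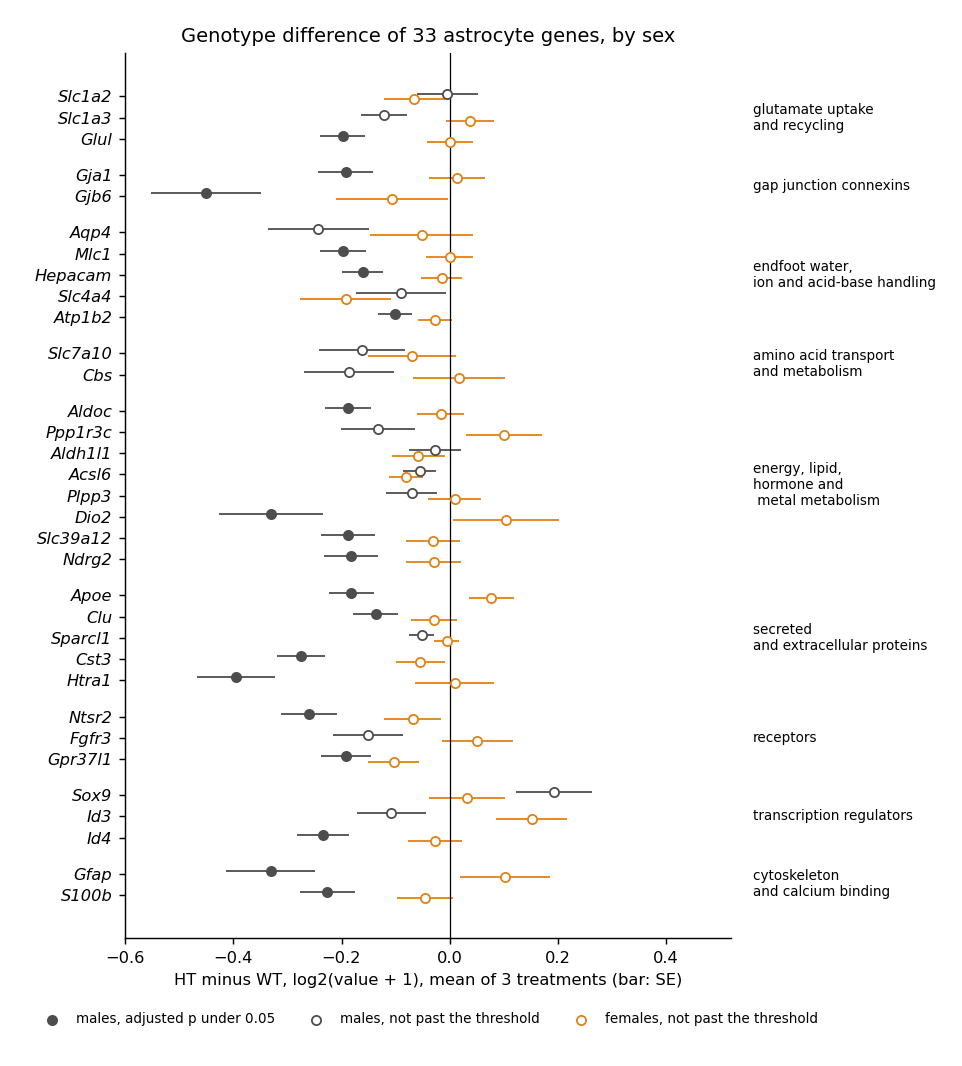
HT minus WT of each of the 33 genes on the log2(value + 1) scale (x axis), as the mean of the 3 treatments with its SE, in males (grey) and females (orange); filled points passed an adjusted p under 0.05. In males 32 of 33 points lie left of 0 and 19 are filled, while in females 20 lie left of 0 and none is filled.

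The difference between the sexes was itself tested. HT minus WT in males minus that in females was called for 2 of the 33 genes (all genes 0.588%): Htra1 at -0.40 (SE 0.10, adjusted p = 0.0496) and Apoe at -0.26 (SE 0.059, adjusted p = 0.0429). A further 18 genes had an unadjusted p under 0.05, 20 in all (all genes 18.7%), each with a more negative difference in males. The 2 calls are fragile. They were lost without the filter on low values, with quantile normalization, with the length term and with a term for striatal and olfactory bulb markers (0 called under each), and between 0 and 6 genes were called when 1 of the 57 libraries was left out. The count moved by over 1.5 times in 42 of the 57 leave-outs.

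Among glutamate handling genes, Glul fell in HT males. Its level ran from 43714 through a median of 50362 to 60053 in the 14 WT male libraries and from 39220 through a median of 43986 to 52384 in the 15 HT male libraries, and 14 of 15 of the latter lay below the WT median. The gene fell by 0.20 on the log2 scale (SE 0.041, adjusted p = 0.0025), while in females HT minus WT was 0.00022 (95% interval -0.084 to 0.084). The transporters were not called in males: Slc1a3 (GLAST) was at -0.12 (SE 0.043, adjusted p = 0.0581) and Slc1a2 (GLT-1) at -0.0041 (SE 0.056, adjusted p = 0.972). Both connexins fell in males. Gjb6 ran from 1330 through a median of 1643 to 2359 in WT males and from 806 through a median of 1180 to 1886 in HT males, so that 9 of the 15 HT libraries were below the lowest WT library, and it fell by 0.45 on the log2 scale (SE 0.10, adjusted p = 0.00453). Gja1, connexin 43, fell by 0.19 on the log2 scale (SE 0.05, adjusted p = 0.0128).

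Of the endfoot and ion handling genes, 3 of 5 fell in males. Mlc1, a membrane protein of perivascular astrocyte contacts, fell by 0.20 on the log2 scale (SE 0.043, adjusted p = 0.00373). Its binding partner Hepacam (GlialCAM) fell by 0.16 on the log2 scale (SE 0.037, adjusted p = 0.00552). Atp1b2, a beta subunit of the sodium pump, fell by 0.10 on the log2 scale (SE 0.031, adjusted p = 0.0317). The water channel Aqp4 was not called, at -0.24 (SE 0.094, adjusted p = 0.086). Its largest difference was under fluoxetine, where the 5 WT males were at 4336, 4351, 4474, 4555 and 4560 and the 5 HT males at 1806, 2811, 3434, 3771 and 3995. These do not overlap, and the lowest value is that of HT fluoxetine male 3, the library with few microglial transcripts. In males HT minus WT of Aqp4 was -0.089 under vehicle and -0.091 under lithium. For groups this small, the share of all genes that separate in this way was not counted, here or below. The bicarbonate cotransporter gene Slc4a4 was not called in either sex: in males HT minus WT was 0.061 under vehicle, -0.34 under fluoxetine and 0.013 under lithium. In females it was -0.40, -0.017 and -0.16. The vehicle difference in females includes WT vehicle female 1 at 7950, where the other 3 WT libraries were between 4455 and 5566. The 5 HT libraries were between 3364 and 4769.

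Neither of the amino acid genes was called in males: Slc7a10, a D-serine and glycine transporter, was at -0.16 and Cbs at -0.19. In energy, lipid, hormone and metal metabolism, 4 of 8 fell. Dio2, the deiodinase that makes active thyroid hormone in astrocytes, fell by 0.33 on the log2 scale (SE 0.096, adjusted p = 0.0235). Under fluoxetine Dio2 was at 5112, 5972, 6365, 6460 and 6588 in WT males and at 3909, 3932, 4314, 4517 and 4619 in HT males, again with no overlap. Aldoc (aldolase C), Slc39a12 (a zinc transporter) and Ndrg2 fell by 0.19, 0.19 and 0.18, with adjusted p of 0.00453, 0.013 and 0.0166. Acsl6, Plpp3 and Ppp1r3c, a glycogen regulator, were not called, at -0.056, -0.071 and -0.13. Aldh1l1, a folate enzyme widely used as an astrocyte marker, was not called either, at -0.027 in males and -0.058 in females.

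Of the 5 secreted proteins, 4 fell in males, among them the 2 genes with a called sex difference. Cst3 ran from 15903 through a median of 18960 to 25910 in WT males and from 14007 through a median of 16371 to 18386 in HT males. All 15 HT males were below the WT median, and Cst3 fell by 0.28 on the log2 scale (SE 0.044, adjusted p = 0.00015). Htra1, a secreted serine protease, ran from 3533 through a median of 5006 to 6886 in WT males against from 3016 through a median of 3865 to 5020 in HT males, and fell by 0.39 on the log2 scale (SE 0.072, adjusted p = 0.000693). In females Htra1 was at 0.0088 (95% interval -0.14 to 0.16). Apoe fell by 0.18 on the log2 scale (SE 0.041, adjusted p = 0.00474) and was at 0.077 in females (95% interval -0.0076 to 0.16). Under lithium, the 5 HT males had Apoe values of 30041, 30043, 31587, 32140 and 32564, and the 5 WT males had 32271, 32988, 34549, 35434 and 36912. The 5 HT females had 31780, 31832, 36309, 39940 and 40444, and the 4 WT females had 30381, 31277, 33439 and 33455. Of the HT males, 4 were below all WT males, and 3 of the 5 HT females were above all 4 WT females. Clu, the chaperone and apolipoprotein clusterin, fell by 0.14 on the log2 scale (SE 0.042, adjusted p = 0.0293), and Sparcl1 was not called, at -0.052.

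**Figure D2:**
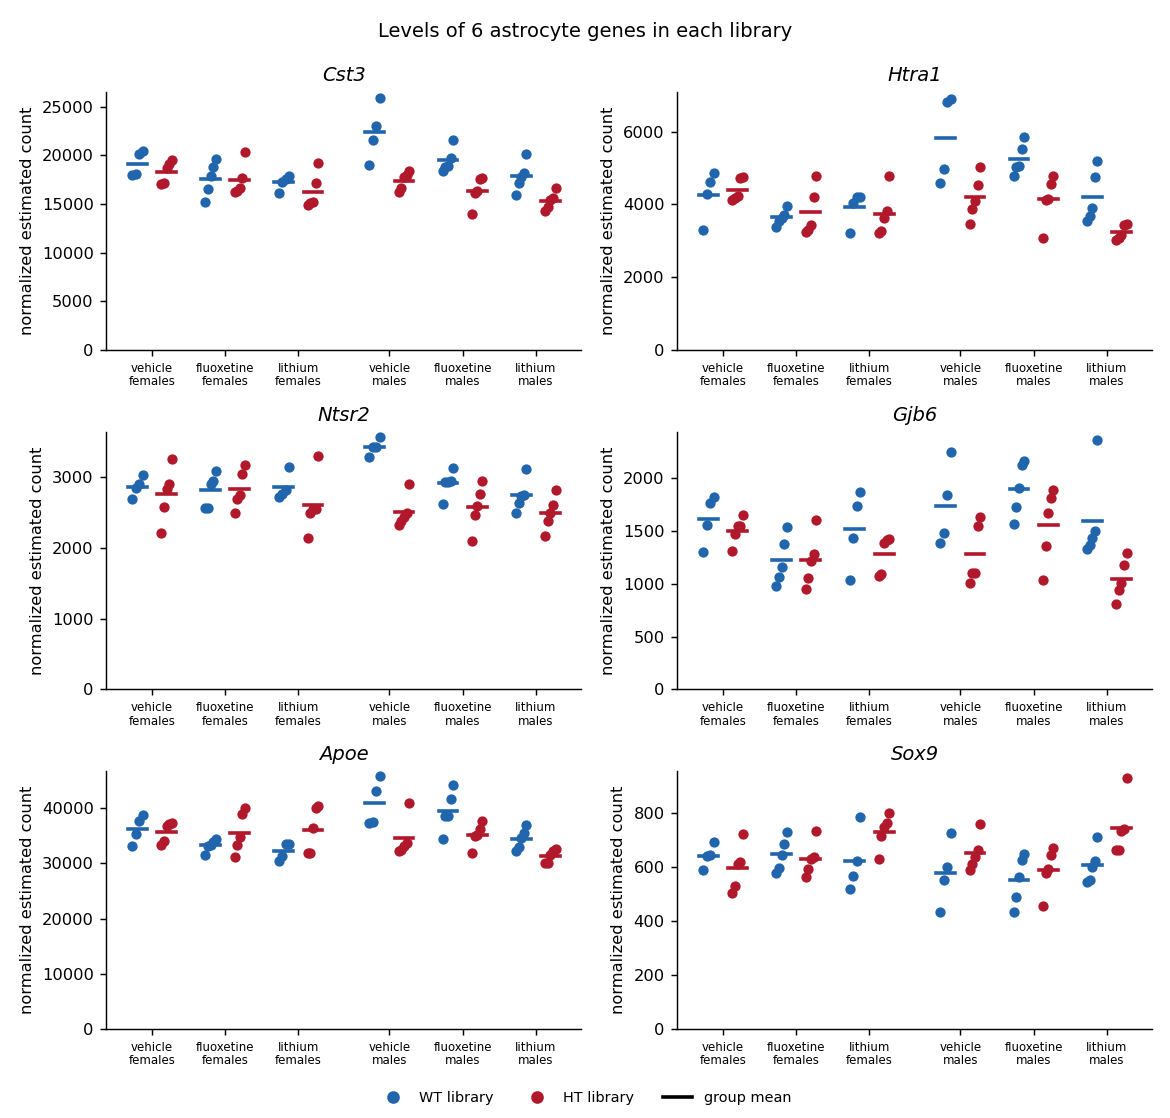
Normalized estimated counts (y axis, from 0) of Cst3, Htra1, Ntsr2, Gjb6, Apoe and Sox9 in each of the 57 libraries, by treatment and sex; points are libraries (WT blue, HT red) and bars are group means. In the male groups the HT mean is below the WT mean for each gene but Sox9 under all 3 treatments, and in the female groups the HT mean is above the WT mean for Apoe under fluoxetine and lithium.

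Ntsr2 and Gpr37l1 fell in males among the 3 receptor genes. Under vehicle, Ntsr2 was at 3288, 3435, 3436 and 3571 in the 4 WT males and at 2331, 2387, 2440, 2503 and 2905 in the 5 HT males, with no overlap. Over all treatments it fell by 0.26 on the log2 scale (SE 0.052, adjusted p = 0.00169) in males. Gpr37l1 fell by 0.19 on the log2 scale (SE 0.046, adjusted p = 0.00768), and Fgfr3, a growth factor receptor of astrocytes, was at -0.15 (SE 0.065, adjusted p = 0.127). Of the transcription regulators only Id4, an inhibitor of basic helix-loop-helix factors, fell, by 0.23 (adjusted p = 0.00236). Id3 was at -0.11 in males and 0.15 in females. Sox9 was the single member of the set above 0 in males, at 0.19 (SE 0.069, adjusted p = 0.065). With quantile normalization it was called higher. Under lithium Sox9 was at 544, 552, 602, 623 and 712 in WT males and at 662, 665, 733, 743 and 929.8 in HT males.

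Gfap, the intermediate filament protein of astrocytes, and S100b both fell in males. Gfap ran from 3524 through a median of 4325 to 6141 in WT males and from 2923 through a median of 3586 to 4154 in HT males, all 15 of which were below the WT median, and fell by 0.33 on the log2 scale (SE 0.082, adjusted p = 0.00916). In females it was at 0.10 (95% interval -0.066 to 0.27). By treatment, HT minus WT of Gfap in females was -0.13 under vehicle, 0.45 under fluoxetine and -0.012 under lithium. In males it was -0.42, -0.46 and -0.11, so the sexes differed in sign only under fluoxetine. Under fluoxetine the signs were opposite in the sexes: the 5 WT females were at 2540, 2938, 3292, 3742 and 3872 and the 5 HT females at 3581, 4186, 4752, 4853 and 4958, while the 5 WT males were at 4310, 4916, 5323, 5508 and 6141 and the 5 HT males at 3401, 3586, 3742, 4089 and 4154. The HT males were all below the WT males, and 4 of the 5 HT females were above all WT females. The sex difference of Gfap over all treatments was -0.43 (SE 0.12, adjusted p = 0.0574) and was not called. S100b fell by 0.23 on the log2 scale (SE 0.051, adjusted p = 0.00419) in males.

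The mean deviation of the same 33 genes summarizes them in each library, and its ranges overlap between the genotypes in both sexes. It ran from -0.065 through a median of 0.11 to 0.33 in WT males and from -0.20 through a median of -0.062 to 0.083 in HT males on the log2 scale. In females it ran from -0.12 through a median of -0.008 to 0.14 in WT and from -0.23 through a median of -0.045 to 0.18 in HT. The WT males were the high group, and the HT males lay near the females of both genotypes. The male difference was present in each treatment: the median over the 33 genes was -0.17 under vehicle, -0.19 under fluoxetine and -0.084 under lithium. In females it was -0.027, -0.012 and -0.015. In males 26 of the 33 genes were below 0 under all 3 treatments, in females 8, and 5 (Gjb6, Atp1b2, Acsl6, Cst3 and Gpr37l1) in all 6 combinations. In single combinations, 49.4% (lithium males) to 51.9% (vehicle males) of all genes were below 0. The share of all genes below 0 in several combinations at once was not counted. The 33 genes also vary together within groups, so their signs are not independent. Averaged over genotypes and drugs, females minus males had no called gene among the 33 by limma (all genes 0.108%) and 3 with an unadjusted p under 0.05 (all genes 5.36%), the smallest for Htra1 at -0.15 (SE 0.052, adjusted p = 0.832).

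**Figure D3:**
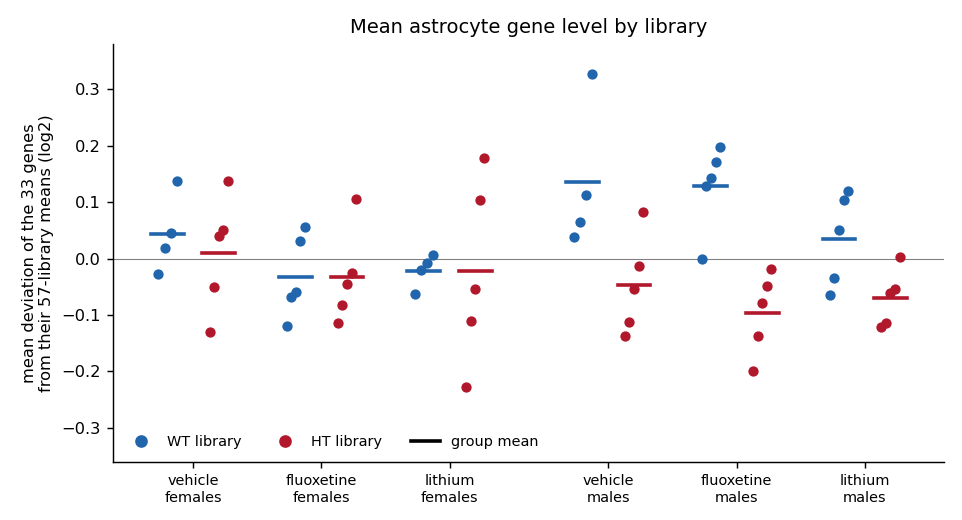
Mean over the 33 genes of each library's deviation from the gene's mean in all 57 libraries (y axis, log2), by treatment and sex; points are libraries (WT blue, HT red) and bars are group means. In males the WT group mean is above the HT group mean under each of the 3 treatments, and in females the groups overlap broadly.

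Within vehicle alone, 7 of the 33 genes fell in HT males: Ntsr2, Cst3, Id4, Aldoc, Htra1, Clu and Apoe (all genes 4.01%, lower 1.09%). At an unadjusted p under 0.05 there were 16 (all genes 21.6%). Ntsr2 fell by 0.45 on the log2 scale (SE 0.094, adjusted p = 0.0096) and Cst3 fell by 0.35 on the log2 scale (SE 0.08, adjusted p = 0.0147). With 4 and 5 libraries these counts moved widely: none of the 33 was called without WT vehicle male 2, 1 without HT vehicle male 2, 2 without HT vehicle male 3 or WT vehicle male 3, 3 without HT vehicle male 5, and 10 without WT vehicle male 1. None was called with the length term or when only the compared groups were fitted. In vehicle females limma called none (all genes 0.024%), 1 had an unadjusted p under 0.05 (all genes 6.58%), and this was Slc4a4 at -0.40 (SE 0.15, adjusted p = 0.704). Next came Atp1b2 at -0.073, Dio2 at 0.21 and Gpr37l1 at -0.10. The Dio2 value turned to -0.018 without WT vehicle female 1. The difference between the sexes under vehicle was called by limma for none of the 33 (all genes 0%), and 9 had an unadjusted p under 0.05 (all genes 14.8%). The smallest p was that of Ntsr2, at -0.39 (SE 0.13, adjusted p = 0.249).

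Markers of other cells were also called in HT males, where 9.64% of all genes were called and 4.68% were called lower. In males, 14 of 50 further astrocyte genes fell and 1 rose, with a median of -0.16. Prdx6, a peroxidase, fell by 0.24, Sdc4, a heparan sulfate proteoglycan, by 0.45, and Acsbg1, an acyl-CoA synthetase, by 0.25, while the gliogenic factor Nfib rose by 0.17. Of 31 measured genes of reactive astrocytes, 10 fell and 1 rose. Microglia markers fell for 5 of 14 (median -0.19), endothelial markers for 5 of 12 (-0.12), oligodendrocyte precursor markers for 4 of 9 (-0.14) and oligodendrocyte markers for 3 of 13 (-0.25). Leptomeningeal markers had a median of -0.29 with 1 of 10 called. Excitatory neuron markers had a median of 0.10, with 2 of 14 called higher. Neuronal markers did not all go that way: the inhibitory neuron marker Pvalb fell by 0.34. The mural marker Vtn and the ependymal marker Foxj1 each fell by 0.27. The astrocyte genes were therefore not the only lower set in HT males, and their difference from the other lists was not tested.

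**Figure D4:**
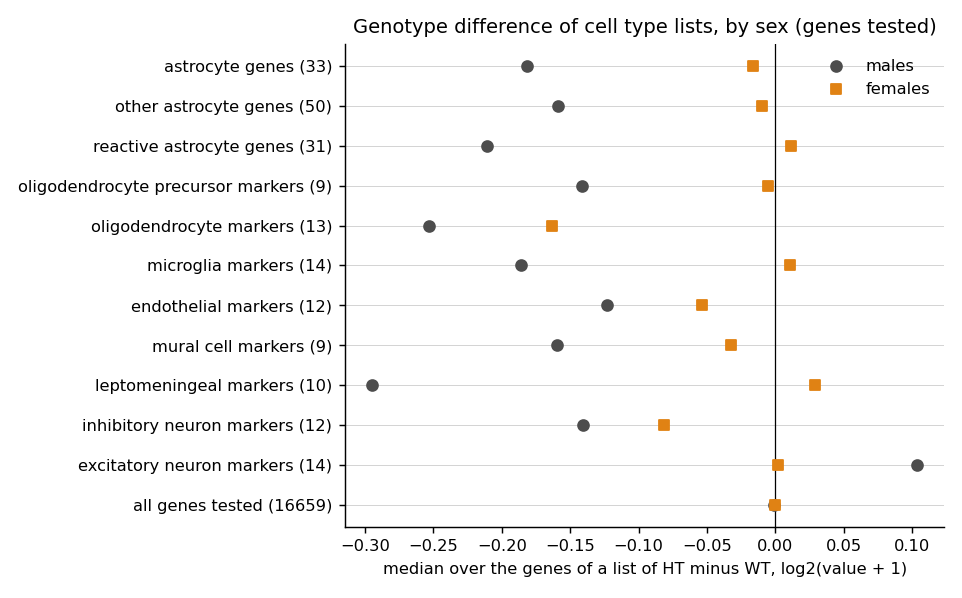
Median over the genes of each cell type list of HT minus WT on the log2 scale (x axis), in males (grey circles) and females (orange squares), with the number of genes tested in parentheses. In males the astrocyte median of -0.18 lies among the medians of the other glial and vascular lists and opposite to the excitatory neuron markers; in females the astrocyte median is -0.016.

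The summed level of the microglia markers ran from 13654 to 18118 in WT males and from 8481 to 15428 in HT males. That of the oligodendrocyte markers ran from 99598 to 205758 in WT males and from 75833 to 148423 in HT males. The summed excitatory neuron markers ran from 227444 to 279588 in WT males and from 243208 to 284547 in HT males, and the summed astrocyte genes from 391426 to 498589 and from 378979 to 441419. Summed inhibitory neuron markers ran from 37563 through a median of 44017 to 52077 in WT males. In HT males they ran from 36057 through a median of 38845 to 43632. Olfactory bulb markers, which mark tissue next to the prefrontal cortex, had a median genotype difference of -0.59 in males and 0.20 in females. With a term for striatal and olfactory bulb markers in the fit, 18 of the 33 genes were called in males. The count over all genes with that term is not given. No marker of microglia, oligodendrocytes, their precursors, endothelial, mural or leptomeningeal cells, or excitatory or inhibitory neurons was at 0 in any library. Of 35 reactive astrocyte genes, 4 were at 0 in some library, as were 4 of 10 ependymal and choroid plexus markers and 1 of 12 striatal markers. The part of these other cells in the astrocyte differences was not tested.

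Promoter sequences are shown for the 5 genes called over all treatments whose RefSeq start lies at or before the annotated gene start, since these members were lower together. Each is the 250 bases before the start (RefSeq, GRCm38.p6), written 5′ to 3′ along the gene's own strand. Capitals mark matches on either strand. The letters searched were TATAAA for the TATA box, CCAAT for the box of that name and GGGCGG for the GC box. A nuclear factor I site was searched as TTGGCA, which can overlap the reverse of a CCAAT match, a STAT element as TTCCNGGAA and a SOX site as ACAATGG. RefSeq promoters were matched for 28 of the 33 genes. The regions are chr14:57133612-57133861 (minus strand) for Gjb6, chr1:153899679-153899928 (plus strand) for Glul, chr1:135167682-135167931 (minus strand) for Gpr37l1, chr13:48260866-48261115 (plus strand) for Id4 and chr10:76253586-76253835 (plus strand) for S100b.
Gjb6: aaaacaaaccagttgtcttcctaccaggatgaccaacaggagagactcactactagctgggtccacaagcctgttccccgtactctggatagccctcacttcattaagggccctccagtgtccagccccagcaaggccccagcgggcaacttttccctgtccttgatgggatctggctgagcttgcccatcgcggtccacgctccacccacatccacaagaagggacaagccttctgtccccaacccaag
Glul: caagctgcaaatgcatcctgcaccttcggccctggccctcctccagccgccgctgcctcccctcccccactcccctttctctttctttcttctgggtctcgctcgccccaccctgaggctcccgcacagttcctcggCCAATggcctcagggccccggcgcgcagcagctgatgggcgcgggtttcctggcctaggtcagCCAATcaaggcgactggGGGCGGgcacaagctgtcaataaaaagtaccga
Gpr37l1: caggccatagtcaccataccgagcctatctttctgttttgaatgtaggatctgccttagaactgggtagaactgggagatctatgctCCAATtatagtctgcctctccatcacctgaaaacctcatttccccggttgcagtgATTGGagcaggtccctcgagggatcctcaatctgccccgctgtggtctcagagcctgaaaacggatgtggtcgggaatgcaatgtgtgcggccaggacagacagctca
Id4: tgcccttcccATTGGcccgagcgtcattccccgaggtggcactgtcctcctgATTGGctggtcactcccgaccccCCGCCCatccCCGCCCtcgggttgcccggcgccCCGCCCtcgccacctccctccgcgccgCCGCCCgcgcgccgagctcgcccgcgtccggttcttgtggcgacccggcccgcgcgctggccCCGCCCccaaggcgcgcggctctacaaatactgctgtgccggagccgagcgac
S100b: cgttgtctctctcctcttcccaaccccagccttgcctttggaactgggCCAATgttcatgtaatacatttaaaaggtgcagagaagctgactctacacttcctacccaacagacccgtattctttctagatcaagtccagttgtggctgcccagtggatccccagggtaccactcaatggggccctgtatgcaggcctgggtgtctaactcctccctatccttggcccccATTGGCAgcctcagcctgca

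The 5 promoters shared no arrangement of these motifs. Glul had 2 CCAAT boxes and 1 GC box, Gpr37l1 had 2 CCAAT boxes, Id4 had 2 CCAAT boxes and 5 GC boxes, S100b had 2 CCAAT boxes and 1 nuclear factor I site, and Gjb6 had no match. The counts over members were not limited to starts at or before the annotated gene start. For Aldh1l1, Slc1a2 and Gfap the RefSeq start lay 64366, 47779 and 3712 bases past it. Over the 28 matched members, a CCAAT box was present in 12, where 33.8% of all 32851 RefSeq promoter windows of the same length held one. A GC box was present in 14 of 28 (all windows 32.7%), a TATA box in 4 (12.4%) and a nuclear factor I site in 3 (12.3%). The STAT element and the SOX site were in none of the 28 (all windows 0.913% and 3.02%). Among the 17 matched genes that fell in HT males, 6 held a CCAAT box, 6 a GC box, 3 a TATA box and 3 a nuclear factor I site. A match is a description of these letters and not a mapped binding site.

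Lithium was compared with vehicle over both genotypes, with 19 lithium and 18 vehicle libraries. The lithium and fluoxetine comparisons share the vehicle libraries. Of the 33 genes, 6 fell and 1 rose under lithium (all genes 13.3%, lower 6.14%), and 17 had an unadjusted p under 0.05 (all genes 27.9%). Cst3 ran from 16277 through a median of 18526 to 25910 under vehicle and from 14301 through a median of 16694 to 20168 under lithium, with 17 of 19 lithium libraries below the vehicle median, and fell by 0.21 on the log2 scale (SE 0.039, adjusted p = 0.000326). Htra1 fell by 0.30 on the log2 scale (SE 0.064, adjusted p = 0.00155). Mlc1, Id4, Apoe and S100b fell by 0.15, 0.16, 0.14 and 0.14, with adjusted p from 0.00539 (Mlc1) to 0.0337 (S100b). Acsl6, an acyl-CoA synthetase that acts on polyunsaturated fatty acids, ran from 6081 through a median of 6694 to 7458 under vehicle and from 6487 through a median of 7304 to 7826 under lithium. It rose by 0.12 (SE 0.027, adjusted p = 0.00338), and 18 of 19 lithium libraries were above the vehicle median.

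The lithium calls moved with the length trend. That trend had a median of -0.04 under vehicle, 0.039 under fluoxetine and 0.09 under lithium. With it as a term in the fit none of the 33 was called, the lithium median over the 33 genes went from -0.068 to 0.002, and Htra1 went from -0.30 to -0.038. Of the 7 called genes Id4 moved least, from -0.16 to -0.14. The trend is measured in the same libraries as the drug differences. The count over all genes also moved with the settings, and its value with this term is not given. In WT mice alone, 7 of the 33 fell under lithium (all genes 8.53%, lower 3.08%; 11 at an unadjusted p under 0.05, all genes 23.8%): Cst3, Apoe, Id4, Id3, S100b, Htra1 and Mlc1. Their changes ran from -0.17 (Mlc1) to -0.29 (Htra1). Id3 ran from 619 through a median of 718 to 865 in 8 WT vehicle libraries and from 437 through a median of 562 to 719.7 in 9 WT lithium libraries, and fell by 0.28 on the log2 scale (SE 0.083, adjusted p = 0.0274).

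The WT count was 2 to 7 when 1 library was left out: it was 2 without WT vehicle female 3, 3 without WT lithium female 4, WT lithium male 3 or WT vehicle male 2, and 4 without WT lithium female 3 or WT vehicle female 4. It was 0 when only the 4 WT groups compared were fitted, and 3 without the filter on low values. In HT mice limma called none of the 33 under lithium (all genes 0.888%), with 10 at an unadjusted p under 0.05 (all genes 12.8%). The smallest p were those of Htra1 at -0.30 (SE 0.087, adjusted p = 0.0746), Cst3 at -0.18, Acsl6 at 0.12 and Sox9 at 0.24. Without HT lithium female 1 the count was 3, and without HT vehicle male 2 it was 1. The lithium effect in HT minus that in WT was called by limma for none of the 33 (all genes 0%). Id3 alone had an unadjusted p under 0.05 (all genes 7.31%), at 0.33 (SE 0.11, adjusted p = 0.61). In HT mice Id3 ran from 551 through a median of 659 to 730.0 under vehicle and from 558 through a median of 671 to 826 under lithium.

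Under fluoxetine, 3 of the 33 genes fell and none rose over both genotypes (all genes 4.75%, lower 3.07%), with 8 at an unadjusted p under 0.05 (all genes 20.2%). Mlc1 ran from 3645 through a median of 3991 to 5021 in 18 vehicle libraries and from 3009 through a median of 3603 to 4537 in 20 fluoxetine libraries, and fell by 0.14 on the log2 scale (SE 0.038, adjusted p = 0.0188). Id3, which like Id4 inhibits basic helix-loop-helix factors, fell by 0.21 on the log2 scale (SE 0.056, adjusted p = 0.0222), with 16 of 20 fluoxetine libraries below the vehicle median. Gpr37l1 fell by 0.14 on the log2 scale (SE 0.041, adjusted p = 0.0292). None was called with the length term. The count was 5 without HT vehicle male 2, WT vehicle female 1 or WT vehicle male 1, and 1 (Mlc1) without the pair of libraries that stand apart. Within each genotype limma called none of the 33: in WT mice (all genes 0.84%) 5 had an unadjusted p under 0.05 (all genes 15.2%), and in HT mice (all genes 0.33%) 5 did (all genes 14.6%). The smallest p were those of Id3 in WT, at -0.27 (SE 0.081, adjusted p = 0.0915), and Dio2 in HT, at -0.39 (SE 0.12, adjusted p = 0.0926). The fluoxetine effect in HT minus that in WT was called by limma for none of the 33 (all genes 0%), and only Slc1a2 had an unadjusted p under 0.05 (all genes 7.71%), at -0.24 (SE 0.097, adjusted p = 0.566).

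**Figure D5:**
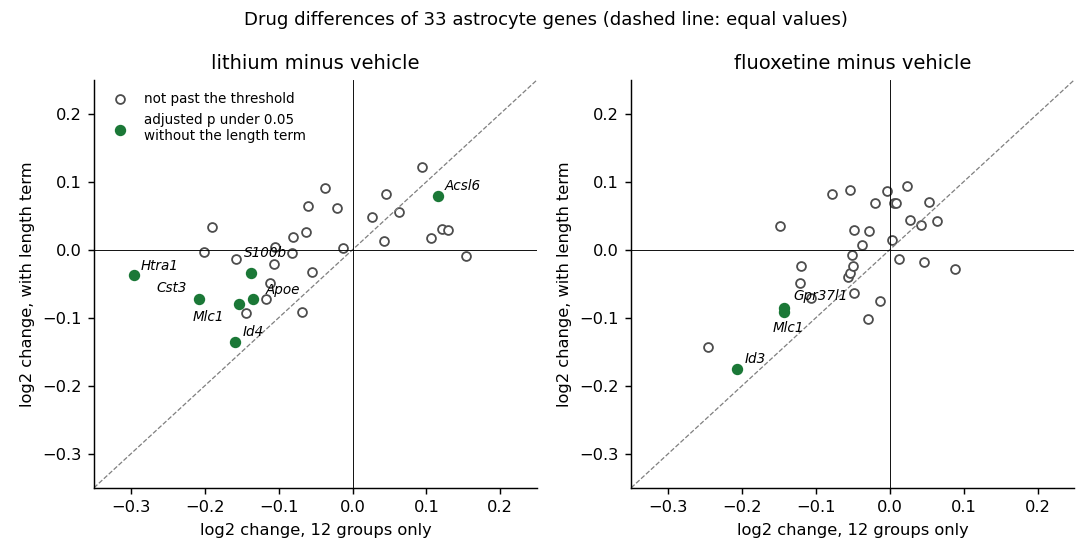
Drug minus vehicle of each of the 33 genes on the log2 scale without (x axis) and with (y axis) the length trend of each library in the fit, for lithium (left) and fluoxetine (right); green points were called without that term. The lithium point of Htra1 moves from -0.30 to -0.038, and no point is called with the term.

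Within groups the astrocyte genes varied together. Over the 57 libraries, as deviations from the means of the 12 groups, the 528 pairs of members had a median Pearson r of 0.33 (Spearman rho 0.34). Of these, 484 were above 0 and 138 were over 0.5. Without the 2 libraries farthest from the centre, HT lithium female 4 and HT lithium female 1, the median r was 0.29. The libraries share 1 normalization, no such correlations were computed for other genes or lists, and the values are descriptive. Glul followed the mean of the other members most closely (r = 0.90), then Mlc1 (0.83) and Gja1 (0.76). Sox9 did not (0.039), nor did Aldh1l1 (0.24). The tightest pair was Aqp4 with Plpp3, a lipid phosphate phosphatase (r = 0.83). The typical member was steadier than the typical gene, with a median SD within groups of 0.14 against 0.17 over all genes. The members also had higher levels, with a median mean value of 4190 against 547 over all genes tested. The SD was not compared at matched levels. Gjb6 (0.28) and Dio2 (0.27) varied most and Sparcl1 (0.056) least.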

How the data were processed

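RNA from prefrontal cortex was sequenced as stranded poly(A) libraries, per the labels' protocols. Per the submitters' processing notes, the authors used Salmon 0.11.2, R 3.6.0 and DESeq2 1.19.11 with GRCm38. The deposited values are a signal, normalized estimated counts per gene, with totals of 30378902 to 33234604 per library. They are not whole counts, so no count test was run.

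Values were analysed as log2(value + 1), so that fold changes of low genes are understated, for 16659 of 51456 genes with a mean of at least 10. One limma model (3.58.1, R 4.3.3, trend and robust) held 12 groups of genotype, drug and sex over 57 libraries. P-values were adjusted by Benjamini-Hochberg over all genes tested, and the fit was tested on simulated data. Of 19 comparisons, 3 (genotype within each sex over all treatments, and their difference) were added after values were seen. The members and the gene lists were chosen with earlier results of these data known. All 33 members are accounted for, with full statistics for those called in a comparison and otherwise for up to 4 with the smallest p. Of other lists, up to 4 called genes were named. The alternatives were a pseudocount of 10, no filter, only the groups compared, a replicate block, quantile normalization, a transcript length trend, a dissection marker term, leaving out each library and leaving out libraries that stand apart.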

Additional observations from a re-analysis of the deposited data

Results flagged for a closer look

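In each arm of 8 to 10 libraries, the highest and the lowest library were compared with the nearest other library by Dixon's criterion at 95%, for each of the 33 genes and their mean deviation. Of 204 such tests over the 6 arms, 14 set a value apart, and chance flags about 1 in 20.

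HT fluoxetine male 3 was the lowest of its arm for 4 genes: Slc7a10 at 287 (the next library 611), Acsl6 at 5198 (6233), Plpp3 at 4512 (5589) and Gpr37l1 at 2751 (3726). The same library had microglia markers 1.03 below their mean on the log2 scale, and its part in these values was not tested. WT vehicle male 3 was the highest of its arm for Glul at 60053 (the next 51181), Mlc1 at 5021 (4358) and the mean deviation of the 33 genes at 0.33 (0.14). HT lithium female 5 was the highest for Gja1 at 6894 (5773) and Aqp4 at 6011 (4452). HT lithium female 1 was the highest for Htra1 at 4766 (3827). WT lithium male 1 was the highest for Dio2 at 7625 (5824), and WT lithium male 4 for Id4 at 1630 (1416). Clu was set apart in both directions, with HT fluoxetine female 2 the highest at 20683 (18430) and WT vehicle female 1 the lowest at 13756 (18431).

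The genotype difference over all treatments differed between the sexes for Apoe (-0.26, males minus females, log2) and Htra1 (-0.40) by limma's test of that difference, at adjusted p of 0.0429 and 0.0496.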

How the results depend on the processing

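Counts of the 33 genes called moved by over 1.5 times in several comparisons, and unless stated the cause was not tested. Counts over all genes under single settings are not given, so a change among the 33 cannot be set against them. For HT minus WT under vehicle (1 called), the count was 0 without the filter, with only the groups compared, with the replicate block, with the dissection term or without the 2 libraries that stand apart, and 2 with quantile normalization or the length term; it was 0 to 3 with 1 library left out. In vehicle males (7) it was 3 without the filter, 0 with only the groups compared, 4 with the replicate block, 0 with the length term, 0 without the 2 libraries and 0 to 10 with 1 left out. For HT minus WT in males over all treatments (19) it was 5 with the length term. For the difference between the sexes (2) it was 0 without the filter, with quantile normalization, the length term or the dissection term, and 0 to 6 with 1 left out. For HT minus WT over all treatments (10) it was 1 without the vehicle libraries in the contrast, which uses fewer samples. For HT minus WT under fluoxetine (0) it was 0 to 1, the 1 without HT fluoxetine male 2.

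For lithium in WT mice (7) it was 3 without the filter, 0 with only the groups compared, 0 with the length term, 3 without the 2 libraries and 2 to 7 with 1 left out. For lithium in HT mice (0) it was 1 with only the groups compared, 3 without the 2 libraries and 0 to 3 with 1 left out. For lithium over both genotypes (7) it was 0 with the length term. For fluoxetine over both genotypes (3) it was 0 with the length term, 1 without the 2 libraries and 2 to 5 with 1 left out. For fluoxetine in WT mice (0) it was 1 with the dissection term and 0 to 1 with 1 left out, the 1 without WT vehicle male 1 or WT vehicle male 4. For fluoxetine in HT mice (0) it was 0 to 1, the 1 without HT vehicle male 2.

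Replicate numbers do not pair the samples: same-numbered libraries had a median correlation of -0.0078, 28 of 300 pairs were over 0.1, and 10 of 57 libraries correlated best with their own number. With the replicate block, 7 genes were called for HT minus WT over all treatments, 19 in males and 5 for lithium in WT. Of 100 single-gene results recomputed, 1 reversed: Dio2 in vehicle females, HT minus WT, was -0.018 without WT vehicle female replicate 1, and 0.21 with all libraries (range -0.018 to 0.34). Counts over all genes also moved, from 623 to between 218 and 872 for HT minus WT over all treatments, from 1606 to between 204 and 2319 in males, from 108 to between 64 and 204 in females, from 98 to between 0 and 727 for the sex difference, from 2216 to between 143 and 2644 for lithium and from 791 to between 75 and 1288 for fluoxetine. Depth before normalization is unknown, and no interval for counting error was given.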
